A study of Mus musculus with 26 samples.

Results

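Dopamine and cAMP signalling in the spiny neurons of the striatum is described here through 9 genes, measured in ribosome footprints and in total RNA of mice with altered LRRK2. The genes are *Drd1a*, *Drd2*, *Adora2a*, *Gnal*, *Adcy5*, *Rgs9*, *Pde10a*, *Pde1b* and *Ppp1r1b*. They were picked by gene symbol for their roles in the pathway, with no measured value in the rule. Earlier results of these data were known when they were chosen. Each of the 9 was listed in each of the 3 deposited tables, which hold 9602 transcripts between them.

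Spiny projection neurons are the main neurons of the striatum and receive dopamine from the midbrain and glutamate from the cortex. Those of the direct pathway carry the D1 dopamine receptor, which drives cAMP synthesis through the G protein subunit Gαolf and adenylyl cyclase 5. Those of the indirect pathway carry the D2 dopamine receptor, which restrains cAMP synthesis, and the adenosine receptor encoded by *Adora2a*, which drives it. Phosphodiesterases end the cyclic nucleotide signal, RGS9 shortens G protein signalling, and DARPP-32, the product of *Ppp1r1b*, inhibits protein phosphatase 1 once the cAMP-dependent kinase has phosphorylated it.

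The study asked how LRRK2, a kinase mutated in Parkinson's disease, alters translation in the mouse brain. GS LRRK2 TG mice carried a G2019S LRRK2 transgene, GS/DA LRRK2 TG mice carried the kinase-dead G2019S/D1994A form, and both were compared with non-transgenic (non-TG) control mice, while LRRK2 KO mice were compared with wild-type (WT) mice. All groups were C57BL/6 mice aged 3 months by the labels, and each sample was a pool of caudate putamen from 3 mice of mixed sex. The transgenes were of the Tet-off type, driven by tTA under the CaMKII promoter in high copy lines, and breeding cages received doxycycline until weaning, so transgene expression followed that promoter and not a cell type chosen for the pathway.

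The labels list 24 striatum libraries. Non-TG control had 3 footprinting and 3 RNA-Seq libraries, the 2 transgenic groups had 2 of each, and WT and LRRK2 KO had 3 footprinting and 2 RNA-Seq libraries each. Footprinting sequences the mRNA fragments that ribosomes protect from RNase I, and RNA-Seq here measured total RNA after removal of rRNA. Translation efficiency (TE) is the log2 ratio of the footprinting mean to the RNA-Seq mean of a gene.

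Each table holds 1 mean per group and assay, made by the authors from reads divided by DESeq size factors within that table. From these means the reads of single libraries were recovered for 10 of the 12 mean columns, with 2 libraries behind each mean and 99.4% to 99.9% of the transcripts resolved. In the GS LRRK2 TG table neither mean of the non-TG control could be resolved, so that comparison has means for the control and no test. Recovered footprinting libraries held 16552135 and 10194181 reads in the CDS for non-TG control, 20081093 and 8544675 for GS/DA LRRK2 TG, and 8547215 and 7485949 for GS LRRK2 TG. Those of WT held 5287822 and 3117475, and those of LRRK2 KO held 6200202 and 2948706. The recovered RNA-Seq libraries ranged from 3184949 reads in 1 WT library to 15193344 in 1 GS/DA LRRK2 TG library.

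Recovered libraries carry no replicate number and are called library 1 and library 2. Within a comparison, the libraries of control and genotype were matched on how library 1 and library 2 differ, which was alike in the 2 groups. Across transcripts, which are not independent replicates, Spearman's rho of that difference between the groups was 0.740 for footprinting and 0.977 for RNA-Seq in the GS/DA LRRK2 TG comparison, and 0.756 and 0.682 in the LRRK2 KO comparison. Footprinting and RNA-Seq libraries were not linked to each other.

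The RNA-Seq libraries of a group stood far apart in the transgenic tables. The SD over transcripts of the log2 ratio of library 2 to library 1 was 1.46 in non-TG control and 1.72 in GS/DA LRRK2 TG, against 0.27 and 0.28 for footprinting. This ratio rose with the GC content of the CDS, with Spearman's rho across transcripts of 0.775 in non-TG control and 0.804 in GS/DA LRRK2 TG. For footprinting, rho was 0.454 and 0.486 in these groups. GS LRRK2 TG had -0.335 for footprinting and 0.790 for RNA-Seq. In WT and LRRK2 KO, rho was -0.626 and -0.285 for footprinting, and -0.021 and 0.258 for RNA-Seq. In the LRRK2 KO table the SD was 0.67 and 0.65 for footprinting and 0.66 and 0.58 for RNA-Seq, in WT and LRRK2 KO. The CDS of the 9 genes ranged in GC content from 50.2% for *Drd1a* to 60.7% for *Ppp1r1b*.

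The targeted gene was checked against the labels first. *Lrrk2* had 1445 and 1224 normalized footprinting reads in non-TG control libraries 1 and 2, and 7267 and 4766 in GS/DA LRRK2 TG. GS LRRK2 TG had 3320 and 7052, against a control mean of 2524 in its own table. That control mean was 1.89 times the 1335 of non-TG control as normalized with GS/DA LRRK2 TG. Over all transcripts the median of this ratio was 0.792, and 0 transcripts lay above *Lrrk2*. The cause was not tested, so *Lrrk2* does not settle the label of the control of GS LRRK2 TG. Every transgenic library still lay above the control it was compared with. *Lrrk2* RNA-Seq reads, in contrast, were 5233 and 560 in non-TG control and 5038 and 404 in GS/DA LRRK2 TG, with overlapping groups. In the LRRK2 KO table, footprinting reads were 400 and 690 in WT and 102 and 150 in LRRK2 KO, and RNA-Seq reads were 1278 and 733 in WT and 423 and 270 in LRRK2 KO. Both assays had lower *Lrrk2* in each LRRK2 KO library than in each WT library.

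The striatal label was checked against marker genes. Of 13 markers of spiny neurons in general, 12 were measured, with *Ppp1r1b* the most abundant and *Meis2* absent from the tables. Their summed footprinting reads were 35998 and 37345 in WT, and 145210 and 161702 in non-TG control as normalized with GS/DA LRRK2 TG. Markers of dopamine neurons were measured only for *Ddc*, whose footprinting mean was 166 in non-TG control, while *Th*, *Slc6a3* and *Slc18a2* were absent from the tables. Transcripts with few reads had been discarded by the authors, and a gene may also be listed under another symbol, so the cause of an absence was not examined. In bulk tissue, fewer cells of a type and less RNA per cell cannot be told apart.

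In the controls, levels were compared per kb of CDS, in normalized reads of the GS/DA LRRK2 TG table for non-TG control. *Ppp1r1b*, on mm9 at chr11:98209718-98219110 (plus strand), led with 59859 and 84155 footprinting reads per kb in libraries 1 and 2. *Pde1b*, a phosphodiesterase activated by calcium and calmodulin at chr15:103333465-103360483 (plus), followed with a mean of 23904, since its control footprinting mean could not be split into libraries. *Pde10a*, the phosphodiesterase enriched in spiny neurons at chr17:8718237-9179513 (plus), had 9324 and 10617. These levels overlapped those of *Gnal*, the gene of Gαolf at chr18:67247990-67386446 (plus), with 9968 and 9737. *Rgs9*, at chr11:109086669-109159443 (minus), was next with 6144 and 5858, below both *Gnal* libraries and above both libraries of the remaining genes.

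The receptors and the cyclase formed the lower end of the footprinting order. *Drd1a*, at chr13:54146555-54151027 (minus), had 2392 and 3077 footprinting reads per kb. *Adcy5*, at chr16:35154963-35305823 (plus), had 1958 and 2750, and *Adora2a*, at chr10:74779688-74797533 (plus), had 1846 and 2617. These 3 genes overlapped one another and were not separated by their spread. *Drd2*, at chr9:49148732-49216282 (plus), was lowest with 935 and 1172, below both libraries of each other gene. In WT, *Ppp1r1b*, *Pde1b*, *Pde10a*, *Gnal* and *Rgs9* held the same places and *Drd2* was again last, with 221 and 105 reads per kb.

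By RNA-Seq the order of the receptors differed. *Drd1a* was last in both controls, with 1667 and 2086 RNA-Seq reads per kb in non-TG control and 473 and 850 in WT. *Drd2* had 1332 and 6030 RNA-Seq reads per kb in non-TG control, below *Drd1a* in library 1 and above it in library 2. In WT, *Drd2* had 1321 and 1054, above both *Drd1a* libraries. The pair of phosphodiesterases kept its order, with *Pde1b* at 15109 and 24907 RNA-Seq reads per kb in non-TG control and *Pde10a* at 8569 and 5055. In non-TG control, *Pde10a*, *Rgs9*, *Adora2a*, *Adcy5* and *Drd2* were each not separated from the gene next below.

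**Figure D1:**
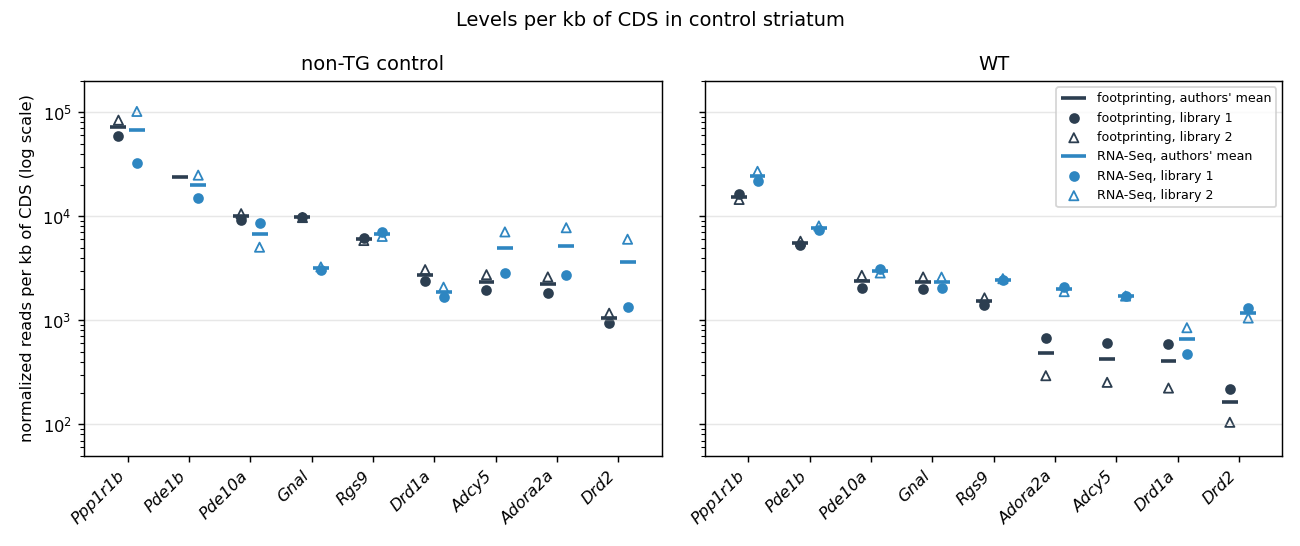
Normalized reads per kb of CDS (log scale) of the 9 genes in non-TG control (GS/DA LRRK2 TG table) and WT, ordered by footprinting. Bars are the authors' means and points are recovered libraries, and *Ppp1r1b* leads in both controls while *Drd2* has the fewest footprints per kb.

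TE spread widely within the pathway. *Gnal* had the highest TE of the 9 in both controls, 1.64 in non-TG control, with 1.58 to 1.71 over the 4 pairings of a footprinting with an RNA-Seq library, above 98.3% of all transcripts. In WT its TE was 0.00, with -0.37 to 0.36 over the pairings and 87.5% of transcripts lower. *Adcy5*, *Adora2a* and *Drd2* had the lowest TE in both controls. Their values were -1.08, -1.23 and -1.81 in non-TG control and -1.99, -2.04 and -2.87 in WT. The median TE of all transcripts was 0.04 in non-TG control and -0.64 in WT. The non-TG control values are those of the GS/DA LRRK2 TG table. In the GS LRRK2 TG table, this control had 1.45 for *Gnal*, and -1.46, -1.63 and -2.24 for *Adcy5*, *Adora2a* and *Drd2*. The median of all transcripts was -0.17 there.

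The pairings show how far single libraries move these values. The TE of *Drd2* ran from -2.69 to -0.18 over the pairings in non-TG control, and that of *Ppp1r1b* from -0.77 to 1.38. *Gnal* and *Rgs9* had the narrowest ranges there, with *Rgs9* between -0.27 and -0.06. In WT, *Drd1a* had the widest range, from -1.93 to 0.33. *Drd1a*, with a mean TE of 0.54 in non-TG control and -0.69 in WT, stood above *Drd2* in both.

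The predicted folding energy of the 5′UTR, deposited with the tables, differed among genes of like function. *Pde10a* had -301.3 kcal/mol and *Pde1b* -37.72 kcal/mol. *Drd1a* and *Adora2a* had -203.8 and -201.4 kcal/mol, while *Drd2* had -39.4 kcal/mol. *Ppp1r1b* and *Adcy5* were at -227.19 and -198.2 kcal/mol, and *Gnal* and *Rgs9* at -93.9 and -79.6 kcal/mol. The median of all transcripts in the transgenic tables was -91.15 kcal/mol, so the genes lie on both sides of it, and the lowest TE belonged to a gene with a less structured 5′UTR than the median (*Drd2*) and to others with a more structured one (*Adora2a*, *Adcy5*).

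The comparison of GS LRRK2 TG with non-TG control asks what the active kinase does. *Drd1a* had 2708 and 1655 normalized footprinting reads in GS LRRK2 TG libraries 1 and 2, against a control mean of 2608. *Drd2* had 1369 and 804 against a mean of 1105, and *Adora2a* had 2431 and 1379 against 2135. For each receptor, library 1 lay above the control mean and library 2 below it. The log2 changes of the footprinting means were -0.26 for *Drd1a*, -0.02 for *Drd2* and -0.16 for *Adora2a*.

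The same split of the GS LRRK2 TG libraries ran through the signalling genes. *Gnal* had 13673 and 10601 footprinting reads against a control mean of 11306, and *Ppp1r1b* had 38735 and 22161 against 32311. *Adcy5* had 7508 and 5404 against 7164, and *Pde10a* had 21669 and 16104 against 19739. Only *Rgs9* had the lower value in library 1, with 9150 and 9764 against 9677. *Pde1b*, with 31316 and 24092 against 29554, followed the others.

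In RNA-Seq the GS LRRK2 TG libraries stood further apart. *Drd2* had 1533 and 8686 normalized reads against a control mean of 5212, and *Adora2a* had 2561 and 10366 against 6612. *Drd1a* had 1281 and 1546 against 1970, and was thus below the control mean in both libraries. Its RNA-Seq log2 change was -0.48, the lowest of the 9. *Gnal* was below its control mean of 4130 in both libraries as well, with 3808 and 3558.

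Of the 9 genes, 0 passed a 1.2-fold change in footprinting, where 5.6% of all 8576 transcripts did. In RNA-Seq 1 was lower by 1.2-fold (*Drd1a*), against 13.8% of all transcripts. In TE 1 was higher by 1.2-fold (*Gnal*, 0.27), against 16% of all transcripts. The median log2 change of the 9 was -0.09 in footprinting, -0.03 in RNA-Seq and 0.00 in TE, beside 0.00, -0.02 and 0.02 over all transcripts. By a *z* score of the TE change over all transcripts, 0 of the 9 lay beyond 1.5 in either direction, against 11.9% of all.

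These counts rest on single libraries. Without GS LRRK2 TG footprinting library 1, 7 of the 9 passed 1.2-fold in footprinting and the median was -0.41, and without library 2, 2 passed and the median was 0.13. In RNA-Seq, 5 of 7 resolved genes passed without library 1, with a median of 0.01, and 4 of 7 without library 2, with a median of -0.62. In TE the count was 5 without any 1 of the 4 libraries, and the median ran from -0.34 to 0.36. No library of the control could be left out. These counts have no share of all transcripts at the same setting beside them, so they do not show whether the 9 genes stand out.

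The comparison of GS/DA LRRK2 TG with non-TG control asks what the protein does without its kinase activity, and here single libraries were recovered on both sides. *Drd1a* had 3208 and 4126 normalized footprinting reads in non-TG control libraries 1 and 2, and 2066 and 3119 in the matched GS/DA LRRK2 TG libraries. Its RNA-Seq reads were 2235 and 2798 in non-TG control and 1874 and 1964 in GS/DA LRRK2 TG. Both GS/DA LRRK2 TG libraries lay below both control libraries in each assay. The log2 change of the means was -0.50 in footprinting, the lowest but 27 of 8576 transcripts, and -0.39 in RNA-Seq, the lowest but 52.

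The receptors of the indirect pathway differed less. *Drd2* had 1248 and 1564 footprinting reads in non-TG control and 1049 and 1506 in GS/DA LRRK2 TG, with overlapping groups and a log2 change of -0.14. *Adora2a* had 2276 and 3227 against 1710 and 3113, also overlapping, with a log2 change of -0.19. For both receptors the GS/DA LRRK2 TG value was the lower one in each matched pair of libraries, and library 2 differed by less than library 1. Their RNA-Seq libraries 1 and 2 were far apart in both groups. *Drd2* had 1778 and 8051 RNA-Seq reads in non-TG control and 1586 and 8143 in GS/DA LRRK2 TG, and *Adora2a* had 3350 and 9588 against 2248 and 10089. Library 1 was thus lower and library 2 higher in GS/DA LRRK2 TG for both, with log2 changes of the means of -0.01 and -0.07.

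The G protein and the cyclase come next. *Gnal* had 14992 and 14644 footprinting reads in non-TG control and 12744 and 14065 in GS/DA LRRK2 TG, with no overlap and a log2 change of -0.14. *Adcy5* had 7964 and 11188 against 5795 and 10252, which overlap, and a log2 change of -0.26. In RNA-Seq, *Gnal* had 4584 and 4909 against 4577 and 4481, which do not overlap though library 1 differed by only 0.00 on the log2 scale. *Adcy5* had 11617 and 28829 RNA-Seq reads against 9391 and 28533.

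The genes that end the signal had lower values in each matched pair that was resolved. *Rgs9* had 13141 and 12531 footprinting reads in non-TG control and 11600 and 11706 in GS/DA LRRK2 TG, and 15137 and 13723 RNA-Seq reads against 12073 and 12751. Its groups did not overlap in either assay, with log2 changes of -0.14 and -0.22. *Pde10a* had 24978 and 28444 footprinting reads against 20131 and 24529, with no overlap and a log2 change of -0.26. Its RNA-Seq reads were 22956 and 13542 against 20306 and 10890, which overlap. *Pde1b* had 30050 and 36675 footprinting reads in GS/DA LRRK2 TG, both below the control mean of 38533, and 24356 and 40149 RNA-Seq reads in non-TG control against 18043 and 38586.

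*Ppp1r1b*, the target of the pathway, had 35017 and 49230 footprinting reads in non-TG control and 27779 and 40784 in GS/DA LRRK2 TG. The value was lower in both matched pairs, though the groups overlap, and the log2 change of the means was -0.30. Its RNA-Seq reads were 18935 and 59698 against 13203 and 59034, with a log2 change of -0.12. Library 1 carried most of that RNA-Seq difference.

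**Figure D2:**
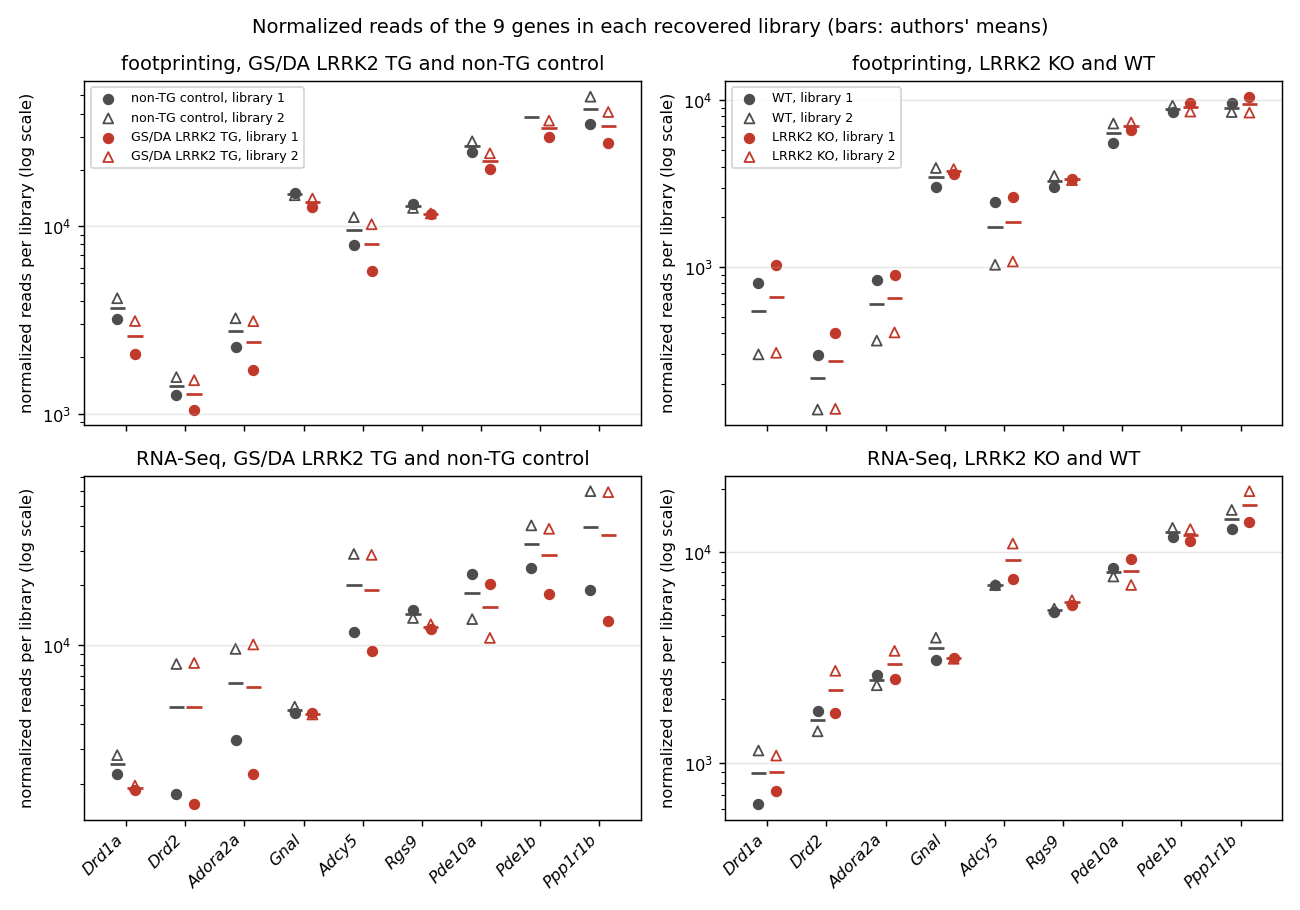
Normalized reads (log scale) of the 9 genes in each recovered library, with bars for the authors' means, for GS/DA LRRK2 TG with non-TG control and LRRK2 KO with WT. Circles are library 1 and triangles library 2 of matched pairs, and *Drd2* RNA-Seq in the transgenic table differs more between library 1 and library 2 than between genotypes, with 1778 and 8051 reads in non-TG control. The control footprinting mean of *Pde1b* was not split.

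Taken as counts, 2 of the 9 were lower by 1.2-fold in footprinting (*Drd1a* and *Ppp1r1b*), against 2.69% of all 8576 transcripts. In RNA-Seq 1 was lower by 1.2-fold (*Drd1a*), against 2.29%. In TE 0 passed 1.2-fold, against 13.3%, and 0 had a *z* score beyond 1.5, against 11%. Of 8 genes with resolved libraries, 8 had lower footprinting in both matched pairs, as did 32.4% of all transcripts, and 4 (*Drd1a*, *Gnal*, *Rgs9* and *Pde10a*) had both libraries below both control libraries, against 12.3%. In RNA-Seq 7 of 9 were lower in both pairs, against 16.1%, and 3 (*Drd1a*, *Gnal* and *Rgs9*) had both libraries below both control libraries, against 1.59%.

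The median log2 change of the 9 was -0.21 in footprinting, -0.12 in RNA-Seq and -0.11 in TE. Over all transcripts the medians were -0.01, 0.06 and -0.05. In footprinting and in RNA-Seq each of the 9 changes of the means was below 0, as were 52.5% and 35.3% of all transcripts. In TE 8 of 9 were below 0, with *Rgs9* at 0.08 the exception, against 66.5% of all.

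The test was limma on the log2 reads of the 8 recovered libraries, with p-values adjusted over all 8499 transcripts with resolved values. *Pde1b* could not enter the fit. Here and in LRRK2 KO, the fit gave each transcript 1 residual variance over both assays. The footprinting p-values thus also hold the spread of the RNA-Seq libraries. Of the 8 genes tested, 0 passed an adjusted p of 0.05 in footprinting, RNA-Seq or TE, and 0% of all transcripts did. At an unadjusted p under 0.05, limma had 3 transcripts in footprinting, 2 in RNA-Seq and 0 in TE, none of them among the 8. With the matching of libraries as a term, limma again called 0 at the adjusted threshold in this comparison, and at an unadjusted p under 0.05 it had 285, 396 and 34 transcripts, among them *Drd1a* in footprinting and RNA-Seq and *Pde10a* in footprinting. With the libraries matched the opposite way, limma had 0 transcripts at an unadjusted p under 0.05 in each. *Lrrk2*, with higher footprinting in each GS/DA LRRK2 TG library, was not called in footprinting either, without the matching or with it (adjusted p 0.103, limma). The fit thus missed a large difference, with the same SE of 1.44 for *Lrrk2* in footprinting and RNA-Seq without the matching. The cause of the miss was not tested, and 0 calls do not exclude changes in the 9 genes. The p-values are between pools of mice, not between mice.

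The count past 1.2-fold depended on which library was used. In footprinting it was 0 of 9 without GS/DA LRRK2 TG library 1 and 7 of 9 without library 2. It was 6 of 8 without non-TG control library 1 and 1 of 8 without library 2. In RNA-Seq it was 6 of 9 without any 1 of the 4 libraries, and in TE it ran from 0 to 7 over the libraries. No share of all transcripts at the same setting stands beside these counts, so whether the 9 genes stand out was not tested. The median change in footprinting stayed below 0 throughout, between -0.42 and -0.07, whereas that in RNA-Seq ran from -0.84 to 0.26 and that in TE from -0.47 to 0.63. The ends of the RNA-Seq range set a mean of both libraries of 1 group against 1 library of the other. Within the matched pairs, the RNA-Seq median of the 9 was -0.31 in library 1 and -0.06 in library 2. Over all transcripts these medians were 0.04 and -0.004.

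Markers of other cells moved in the same comparison. The GS/DA LRRK2 TG table held 3 markers of cortical projection neurons, with *Slc17a7* the most abundant. Their summed footprinting reads were 1630 and 1056 in non-TG control and 4104 and 2574 in GS/DA LRRK2 TG, a log2 change of 1.31. In RNA-Seq the sums were 915 and 1965 against 2408 and 4030, a log2 change of 1.16. In the GS LRRK2 TG libraries the footprinting sums were 431 and 2302, against a control mean of 1612.

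Markers of spiny neurons, which include some of the 9 genes, were lower in footprinting for 12 of 12 in GS/DA LRRK2 TG. Their sums were 145210 and 161702 in non-TG control and 121769 and 145592 in GS/DA LRRK2 TG, a log2 change of -0.20. Of 6 measured markers of direct pathway neurons, led by *Tac1* in footprinting, 5 were lower, with sums of 13890 and 13691 against 11088 and 12943. Of 7 markers of indirect pathway neurons, led by *Penk*, 6 were lower, and the summed mean was 44597 against 32713. *Penk* alone had a mean of 34361 against 23836, and the median change of the 7 was -0.19. The direct pathway list includes *Drd1a*, and the indirect pathway list *Drd2* and *Adora2a*. In footprinting, 52.5% of all transcripts were lower. In RNA-Seq, 9 of the 12 spiny neuron markers were lower, 5 of the 6 and 6 of the 7, against 35.3% of all transcripts. The median RNA-Seq changes of these lists were -0.04, -0.20 and -0.10. The part of these markers in the result was not tested.

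The comparison of LRRK2 KO with WT asks what is lost with the endogenous protein. *Drd1a* had 797 and 300 normalized footprinting reads in WT libraries 1 and 2, and 1024 and 306 in the matched LRRK2 KO libraries. *Drd2* had 295 and 140 against 403 and 141, and *Adora2a* had 836 and 362 against 900 and 406. For each receptor library 1 exceeded library 2 in both groups, and the groups overlap. The log2 changes of the means were 0.28, 0.32 and 0.12, which for *Drd1a* and *Drd2* rest on library 1.

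In RNA-Seq the receptors of the indirect pathway had their highest value in LRRK2 KO library 2. *Drd2* had 1763 and 1407 RNA-Seq reads in WT and 1715 and 2728 in LRRK2 KO, and *Adora2a* had 2606 and 2329 against 2489 and 3392. Library 1 of LRRK2 KO was slightly below its WT match for both genes. The log2 changes of the means were 0.49 for *Drd2*, above 99.2% of all transcripts, and 0.25 for *Adora2a*. *Drd1a* had 635 and 1140 against 733 and 1079, a log2 change of 0.03. Markers of other cells also differed in library 2, with summed RNA-Seq reads of 6 astrocyte markers, led by *Slc1a2*, of 4415 and 6810 in WT and 4208 and 4367 in LRRK2 KO. For 5 microglia markers, led by *Csf1r*, the sums were 422 and 928 against 428 and 1271. The 7 indirect pathway markers, led by *Penk*, had RNA-Seq sums of 9300 and 18270 in WT and 9132 and 17938 in LRRK2 KO. Of these 7, 4 were lower and 3 higher, and *Penk* had a mean of 8060 against 6732. The 5 cortical projection neuron markers had sums of 2610 and 4745 against 2030 and 4115, and 5 of 5 were lower.

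*Adcy5* showed the same library. It had 6953 and 6966 RNA-Seq reads in WT and 7413 and 10975 in LRRK2 KO, with no overlap and a log2 change of 0.40. Its footprinting reads were 2464 and 1033 against 2644 and 1080, a log2 change of 0.09, so its TE change was -0.31. *Gnal* had 3042 and 3930 footprinting reads against 3634 and 3869, and 3071 and 3919 RNA-Seq reads against 3134 and 3110. Its changes were 0.11 and -0.16, and its TE change of 0.27 was the highest of the 9.

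The remaining genes were those that end the signal and *Ppp1r1b*. *Rgs9* had 3018 and 3523 footprinting reads in WT and 3384 and 3321 in LRRK2 KO, and 5186 and 5382 RNA-Seq reads against 5630 and 5907, where the groups do not overlap. *Pde10a* had 5521 and 7254 footprinting reads against 6620 and 7363, and *Pde1b* had 8463 and 9296 against 9626 and 8554. Both phosphodiesterases were higher in library 1 of LRRK2 KO, and *Pde1b* was lower in library 2. *Ppp1r1b* had 9578 and 8502 footprinting reads against 10510 and 8435, and 12845 and 15860 RNA-Seq reads against 13826 and 19472, with log2 changes of 0.07 and 0.21. In RNA-Seq, *Pde10a* had 8379 and 7655 reads against 9252 and 6978, and *Pde1b* had 11806 and 13037 against 11325 and 12856, with log2 changes of 0.02 and -0.04.

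In LRRK2 KO, 2 of the 9 were higher by 1.2-fold in footprinting (*Drd1a* and *Drd2*), against 7.39% of all 9561 transcripts. In RNA-Seq 2 were higher (*Drd2* and *Adcy5*), against 10.6%. In TE 1 was lower (*Adcy5*), against 14%, and 1 was higher (*Gnal*), against 16.9%. By the *z* score 0 lay beyond 1.5, against 12.3%. The groups were apart for 0 of the 9 in footprinting, where 12.6% of all transcripts had both LRRK2 KO libraries lower or both higher than WT, and for 2 in RNA-Seq (*Adcy5* and *Rgs9*, both higher), against 7.04%.

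The median log2 change of the 9 was 0.11 in footprinting, 0.13 in RNA-Seq and -0.09 in TE, beside 0.02, 0.01 and 0.02 over all transcripts. Each of the 9 footprinting changes of the means was above 0, as were 54.4% of all transcripts. With 1 library left out, or the matched libraries of both groups, the median ran from -0.10 to 0.22 in footprinting, from 0.01 to 0.28 in RNA-Seq and from -0.31 to 0.19 in TE. Of the matched pairs, 5 genes were higher in both for footprinting, against 24.3% of all transcripts, and 3 in RNA-Seq, against 24.5%.

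By limma over 9532 transcripts and 8 libraries, 0 of the 9 passed an adjusted p of 0.05 in footprinting, RNA-Seq or TE, and 0% of all transcripts did. At an unadjusted p under 0.05, limma had 17, 9 and 4 transcripts, none of the 9 among them. With the matching of libraries as a term, limma called 5 transcripts in footprinting, 4 in RNA-Seq and 0 in TE, with none of the 9 among them. At an unadjusted p under 0.05 that fit had 217, 463 and 186 transcripts, of the 9 only *Drd2* in RNA-Seq. The matching was chosen from the data, and with the libraries matched the opposite way limma called 0 in each. *Lrrk2* was not called in either assay without the matching. In the fit with the first matching it was called in both assays, at log2 -2.00 ± 0.19 (SE) in footprinting (adjusted p 1.21e-06, limma) and -1.49 ± 0.19 (SE) in RNA-Seq (adjusted p 0.00017, limma).

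Of the LRRK2 KO changes past 1.2-fold, those of 3 genes changed sign with single libraries. The footprinting change of *Drd1a* was -0.26 without WT library 2 and -0.84 without LRRK2 KO library 1, and that of *Drd2* was -0.12 and -0.62. These values set a mean of both libraries against 1 library. Within the matched pairs, libraries 1 and 2 had footprinting changes of 0.36 and 0.03 for *Drd1a* and 0.45 and 0.01 for *Drd2*. The TE change of *Adcy5* was 0.45 without WT footprinting library 1 and 0.19 without LRRK2 KO footprinting library 2. The RNA-Seq change of *Drd2* was -0.04 when RNA-Seq library 2 of both groups was left out. The footprinting count past 1.2-fold was 4 without any 1 of the 4 footprinting libraries and 0 without library 1 of both groups. The RNA-Seq count ran from 0 to 5, with 1 without LRRK2 KO library 2 and 5 without either library 1, and the TE count ran from 1 to 6.

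**Figure D3:**
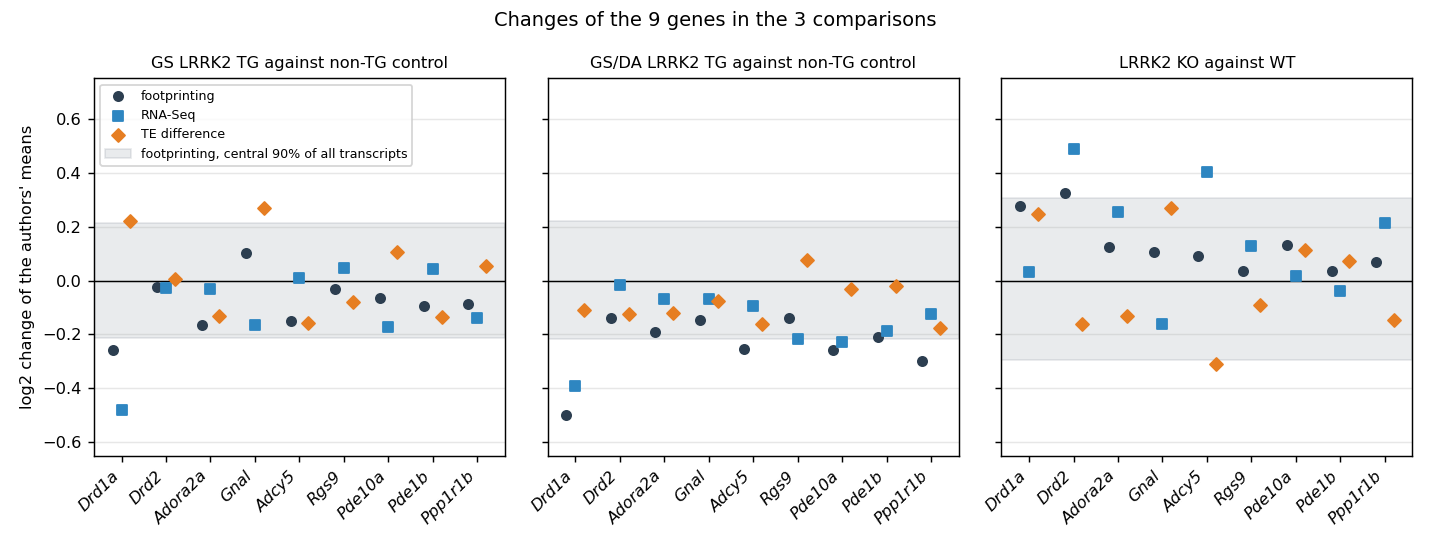
Log2 changes of the authors' means (genotype against control) of the 9 genes in footprinting, RNA-Seq and TE, for the 3 comparisons. The grey band spans the central 90% of footprinting changes of all transcripts, and *Drd1a* at -0.50 in GS/DA LRRK2 TG lies furthest below it.

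Set side by side, with non-TG control as the labelled control of both transgenic groups, *Drd1a* had footprinting changes of -0.26 in GS LRRK2 TG, -0.50 in GS/DA LRRK2 TG and 0.28 in LRRK2 KO. *Drd2* had -0.02, -0.14 and 0.32 in that order. *Ppp1r1b* had -0.09, -0.30 and 0.07. The TE change of *Gnal* was 0.27, -0.08 and 0.27, and that of *Adcy5* was -0.16, -0.16 and -0.31. Differences between the comparisons were not tested.

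The transcripts whose changes were most like those of *Drd1a* were sought over the 6 log2 changes, footprinting and RNA-Seq in 3 comparisons, among 1674 transcripts with group means of at least 500. The nearest was *Cnr1*, with a root mean square difference of 0.0953, followed by *9430020K01Rik* at 0.113 and *Zswim6* at 0.126. The footprinting changes of *Cnr1* were -0.11 in GS LRRK2 TG, -0.40 in GS/DA LRRK2 TG and 0.37 in LRRK2 KO. For *Drd2*, among 1675 transcripts, the nearest were *Cit* at 0.108, *Ppp1cc* at 0.116 and *Snrpn* at 0.120.

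Further genes of the cAMP pathway were taken from a list written with earlier results of these data known. It held 52 receptors, G proteins, cyclases, kinase subunits, phosphodiesterases and phosphatase genes. Of these, 45 were measured in the transgenic tables and 46 in the LRRK2 KO table. In GS LRRK2 TG, 3 were lower and 0 higher by 1.2-fold in footprinting, against 2.74% and 2.86% of all transcripts, with a median change of -0.02. In GS/DA LRRK2 TG, 6 were lower and 1 higher, against 2.69% and 3.23%, with a median of -0.03. In LRRK2 KO, 1 was lower and 2 were higher, against 6.39% and 7.39%, with a median of 0.01. The footprinting medians of all transcripts were 0.00, -0.01 and 0.02. Limma called 0 of 44 in GS/DA LRRK2 TG and 0 of 46 in LRRK2 KO in footprinting, RNA-Seq and TE, and 0 at an unadjusted p under 0.05. It called 0% of all transcripts in each comparison. At an unadjusted p under 0.05, limma had at most 0.0353% and 0.178% of all transcripts in these comparisons. The limma counts of the list thus do not show whether its genes differ from the rest.

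The highest and lowest changes of that list follow. *Rgs2*, another regulator of G protein signalling, had 5188 and 4266 footprinting reads in non-TG control and 3000 and 3236 in GS/DA LRRK2 TG, with no overlap and a log2 change of -0.60, the lowest of the list. *Pde1a*, a relative of *Pde1b*, had 1360 and 825 against 2184 and 1359, which overlap, and a change of 0.70, the highest. Its RNA-Seq reads were 1215 and 122 against 2443 and 122. In TE *Gnai3* was lowest at -0.63, with RNA-Seq reads of 244 and 107 against 469 and 66, and *Pde1c* was highest at 0.15. With 1 library left out these ran from -1.44 to 1.39 and from -2.09 to 2.61.

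In GS LRRK2 TG the lowest footprinting change was that of *Gpr6*, a receptor of indirect pathway neurons, with 1339 and 866 reads against a control mean of 1462, a change of -0.41. The highest was *Pde4b* at 0.16, with 3658 and 3866 reads against 3359. In TE *Pde1a* was lowest at -0.20 (-1.16 to 4.05 with 1 library left out) and *Gnai3* highest at 0.89 (0.22 to 2.17). In LRRK2 KO, *Gnai2* was lowest in footprinting, with 526 and 537 reads in WT and 518 and 351 in LRRK2 KO, a change of -0.29. *Pde1c* was highest at 0.38, with 72 and 80 against 100 and 98, and in TE *Ppp1r9b* was lowest at -0.49 and *Creb1* highest at 0.76, each with the same sign without any 1 library.

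Genes switched on by cAMP and calcium were described from a list of 12, each of them measured. The list was written with earlier results of these data known, so its counts are not independent support. In footprinting the median change was -0.29 in GS LRRK2 TG with 12 of 12 below 0, -0.42 in GS/DA LRRK2 TG with 11 of 12 below 0, and 0.06 in LRRK2 KO with 5 of 12 below 0, against medians of 0.00, -0.01 and 0.02 and shares below 0 of 48.8%, 52.5% and 45.6% over all transcripts. In RNA-Seq the medians were -0.37, -0.32 and -0.34, against -0.02, 0.06 and 0.01. By 1.2-fold in footprinting, 6 were lower in GS LRRK2 TG (2.74% of all transcripts) and 8 in GS/DA LRRK2 TG (2.69%), with 0 higher in either (2.86% and 3.23%). In LRRK2 KO 5 were lower (6.39%) and 4 higher (7.39%). Limma called 0 of 12 in GS/DA LRRK2 TG and 0 of 12 in LRRK2 KO, and 0 at an unadjusted p under 0.05. Over all transcripts limma called 0% in each comparison, and had at most 0.0353% and 0.178% at an unadjusted p under 0.05. These limma counts thus do not show whether the 12 genes differ from the rest.

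*Nr4a1*, a nuclear receptor induced by neuronal activity, had the lowest footprinting change of that list in both transgenic comparisons. It had 2812 and 4058 footprinting reads in non-TG control and 1572 and 1939 in GS/DA LRRK2 TG, with no overlap and a log2 change of -0.97. In GS LRRK2 TG it had 2322 and 800 reads against a control mean of 2574, a change of -0.72 with both libraries below that mean. *Npas4*, a transcription factor induced by calcium, was the highest in both, at -0.04 in GS LRRK2 TG (-0.44 to 0.27 with 1 library left out) and 0.08 in GS/DA LRRK2 TG (-0.12 to 0.26). In TE *Fosb* was lowest in both, at -0.49 and -0.32 (-1.34 to 0.90 and -1.01 to 0.30 with 1 library left out). *Homer1* was highest in GS LRRK2 TG at 0.20 (-0.66 to 2.59) and *Egr2* in GS/DA LRRK2 TG at 0.18 (-0.27 to 0.72), so each of these TE changes took either sign. In LRRK2 KO, *Npas4* was lowest in footprinting at -0.82, with 124 and 133 reads in WT and 45 and 101 in LRRK2 KO, and in TE at -0.30 (-0.99 to 0.35 with 1 library left out). *Fosb* was highest in footprinting at 0.53 (0.25 to 0.86) and *Egr4* in TE at 0.54 (0.08 to 0.97).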

How the data were processed

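The authors mapped reads to mm9 with TopHat2 2.0.11 and Bowtie2 2.2.2 after CASAVA 1.8, counted reads in the CDS, and discarded transcripts with few reads. The deposited means of a group are a signal, made by the authors from reads normalized with DESeq 1.20, without an SD. The authors deposited TE and the TE difference as log2 values, a *z* score of that difference, and a predicted folding energy of the 5′UTR. Their TE difference and *z* score were not used as results. TE and its *z* score were recomputed from the means with a pseudocount of 0.

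A mean of 2 libraries is a sum of whole reads times 2 step sizes. These steps were found from the means, and a transcript was kept where a single pair of whole numbers fitted. Where several pairs fitted, a pair was kept if it alone lay within the range of library ratios of the other transcripts. Failing that, it was kept if it alone lay near the ratio that the other group of the comparison predicted. The other group settled 78 footprinting and 49 RNA-Seq means in the GS/DA LRRK2 TG comparison, and 2 and 1 in the LRRK2 KO comparison. Recovery and test were also run on simulated data, and no outcome of those runs is given or used here. In limma 3.58.1 (R 4.3.3), log2 of normalized reads plus 10 was fitted over all resolved transcripts with group, assay and their interaction, two-sided, with Benjamini-Hochberg adjustment over all transcripts. The deposited values are means, and a count model was not run on the recovered reads. GC content and CDS length, the union over isoforms, came from the GENCODE annotation of mm9. Python 3.11.15, NumPy 2.4.6, SciPy 1.17.1, pandas 2.3.3, numba 0.67.0 and matplotlib 3.10.9 were used.

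The 9 genes and the lists were chosen with earlier results of these data known. Named from each list are genes past the limma threshold, else the highest and lowest footprinting and TE changes in each comparison. *Drd1a* and *Drd2* each have the 3 transcripts nearest over 6 changes. The marker lists cover spiny, direct and indirect pathway neurons, cholinergic interneurons, dopamine neurons, cortical projection neurons, oligodendrocytes, astrocytes, microglia, choroid plexus and blood.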

Additional observations from a re-analysis of the deposited data

How the results depend on the processing

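By replicate number, no paired analysis was possible because neither the deposited columns nor the recovered libraries carry such a number. A replicate block was not run, and the matched libraries used as a term below were paired from the data, not by the labels. GS LRRK2 TG has no limma fit and no mean of log2 values, since its control libraries were not recovered. Each group has 2 recovered libraries, and where 1 is left out the lone library is assumed to vary like the other groups. Group means and pools hold no variation between mice, and transcripts under the authors' read minimum are missing.

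Counts of the 9 genes past 1.2-fold moved as follows, with no share of all transcripts at the same setting, and the cause was not tested. After subtracting the median change of all transcripts, the count was 0 in GS LRRK2 TG TE, 3 in GS/DA LRRK2 TG RNA-Seq, 1 in LRRK2 KO footprinting and 1 in LRRK2 KO TE. From the mean of log2 values it was 2 in GS/DA LRRK2 TG RNA-Seq and 0 in LRRK2 KO footprinting. With a minimum group mean of 2 times the authors' read minimum, which leaves 8 of the genes in LRRK2 KO, it was 1 in footprinting and 1 in RNA-Seq. At 1.5-fold, a stricter limit, each of the nonzero counts was 0. The matching of libraries as a term gave 5 (footprinting) and 4 (RNA-Seq) transcripts called by limma in LRRK2 KO, and with the libraries matched the opposite way both counts were 0. The order by TE in WT kept 3 of 9 places with footprinting library 1 alone, 4 with RNA-Seq library 1 alone and 5 with RNA-Seq library 2 alone.

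Leaving out 1 library, or, as chosen after seeing the data, the matched libraries of both groups, gave these ranges of counts past 1.2-fold. In GS LRRK2 TG they were 2 to 7 in footprinting, 4 to 5 in RNA-Seq and 5 to 5 in TE, and the RNA-Seq median ran from -0.621 to 0.0102. In GS/DA LRRK2 TG they were 0 to 7, 2 to 6 and 0 to 7. In LRRK2 KO they were 0 to 4, 0 to 5 and 1 to 6. No share of all transcripts at the same setting stands beside these ranges. Among changes of single genes past 1.2-fold, 7 values changed sign, each in LRRK2 KO. *Drd1a* footprinting was -0.261 without WT footprinting library 2 and -0.841 without LRRK2 KO footprinting library 1, and *Drd2* footprinting was -0.116 and -0.623, within ranges of -0.841 to 1.15 and -0.623 to 0.961. *Adcy5* TE was 0.449 without WT footprinting library 1 and 0.195 without LRRK2 KO footprinting library 2, within -1.10 to 0.449. *Drd2* RNA-Seq was -0.0401 without RNA-Seq library 2 of both groups, within -0.0401 to 0.955. The other results under the other settings stayed within the spread of their libraries or within 1.5 times their count in 291 cases for the medians, counts and orders and 800 for single genes. For genes without recovered libraries, the median spread of the other genes was used, a choice made after seeing the data. Changes of single genes under 1.2-fold took the other sign in 135 of 692 cases, 25 in GS LRRK2 TG, 60 in GS/DA LRRK2 TG and 50 in LRRK2 KO.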

Other observations

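The non-TG control means differ between the transgenic tables, which were normalized separately. For the 9 genes, the control footprinting mean in the GS LRRK2 TG table was 0.711 to 0.786 times that in the GS/DA LRRK2 TG table, beside a median of 0.792 over all transcripts. For *Lrrk2* this ratio was 1.89, with 0 transcripts above it. In RNA-Seq it was 0.727 for *Lrrk2*, with 8471 transcripts above it and a median of 0.912.

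Markers of other cells were summed in the GS/DA LRRK2 TG table, in non-TG control and then in GS/DA LRRK2 TG footprinting libraries. Of 4 markers of cholinergic interneurons, which also express *Drd2*, 4 were measured, led by *Chat*, with 2319 and 1825 against 2158 and 1960. The 6 astrocyte markers, led by *Slc1a2*, had 22908 and 22879 against 24571 and 25598, and 4 of 6 microglia markers, led by *Csf1r*, had 2913 and 2372 against 3166 and 2635. *Ttr*, the 1 of 3 choroid plexus markers measured, had 1193 and 17057 against 5162 and 1137, so its highest and lowest values differ more within a genotype than the means do between genotypes. In GS LRRK2 TG it had 408 and 1037 against a control mean of 3944. Of 5 blood markers, 3 were measured, led by *Hba-a2*, with 25199 and 18874 against 20612 and 14656.

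In LRRK2 KO, blood markers had 5375 and 1364 footprinting reads in WT and 2716 and 1537 in LRRK2 KO. *Ddc* had 48 and 65 footprinting reads in WT and 34 and 45 in LRRK2 KO. The 12 spiny neuron markers had 35998 and 37345 in WT and 39274 and 37805 in LRRK2 KO.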
